A study of Mus musculus with 6 samples.

Results

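Translation initiation factors are the proteins that bring the small ribosomal subunit, the initiator tRNA and the mRNA together before protein synthesis starts. The genes described here are the protein-coding genes of the deposited mouse count table whose symbol begins with Eif followed by a digit from 1 to 6, which gave 55 of the 49671 genes. They comprise 11 genes of eIF2, its exchange factor eIF2B and their relatives, 4 eIF2 kinases, 14 eIF3 genes, 13 eIF4 genes, 3 eIF4E-binding proteins (4E-BPs), and 10 genes named for eIF1, eIF5 or eIF6. RNA came from embryonic mouse pancreas of strain C57BL/6J at 14.5 dpc (days post coitum), with 3 libraries labelled control and 3 of tissue given 10 µM AMI-5. This compound inhibits protein methyltransferases, and the series addressed what it does to differentiation of the pancreas. The labels give no sex, no number of pooled embryos and no vehicle, and they refer to publications not used here for growth and treatment. Whether the libraries of a group are from separate embryos or cultures is not stated, so the p-values cover only the spread among libraries, which may be technical.

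eIF2 carries the initiator tRNA to the ribosome and must be recharged by eIF2B after each round. Phosphorylation of its alpha subunit by the eIF2 kinases blocks that exchange, lowers general initiation and favours a set of stress mRNAs such as Atf4. eIF4E binds the mRNA cap, eIF4A unwinds the leader, eIF4G joins both to eIF3 on the ribosome, and 4E-BPs hold eIF4E away from eIF4G until TOR signalling phosphorylates them. In the pancreas, the kinase encoded by Eif2ak3 (PERK) is known for its role in secretory cells with a heavy protein load.

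Gene counts summed to 12445425 to 13321899 in the control libraries and to 22894312 to 24805188 in the AMI-5 libraries, which left counting error larger in the controls. Per the labels, samples marked A used an earlier version of the directional library kit, and the control titles carry that mark, so the kit and the treatment cannot be told apart in any value below. Pancreas marker genes were present in each library, with summed levels of 8233 to 12301 CPM (reads scaled to a common library size after TMM normalisation). Of these 7 genes, 1 rose and 3 fell with AMI-5 at the threshold given below, and of 4 mesenchyme markers 1 rose and 2 fell. Over all protein-coding genes tested, 20.1% rose and 30.6% fell. The erythroid markers summed to 4.15 to 10.5 CPM in the controls and to 42.2 to 123 CPM with AMI-5. Neural markers summed to 62.3 to 69.8 CPM in the controls and to 39.3 to 48.1 CPM with AMI-5. Leukocyte markers summed to 129 to 147 CPM in the controls and to 157 to 190 CPM with AMI-5. The list of spleen, gut and liver markers summed to 1220.2 CPM in AMI-5 replicate 2, nearly all from Alb and Afp, and to 17.5 to 50.4 CPM in the other 5 libraries. Processed pseudogenes took 3691 to 3825 CPM in the controls and 30464 to 32624 CPM with AMI-5. Whether these differences have a part in the results was not tested. In bulk RNA, fewer cells of a type and less RNA per cell cannot be told apart.

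Of the 55 genes, 53 had enough counts to be tested. With AMI-5, 13 rose and 20 fell at an adjusted p under 0.05 (edgeR quasi-likelihood test, Benjamini-Hochberg adjustment over all 17519 genes tested), and 20 did not pass. Thus 62.3% of the tested initiation factors changed, against 54.1% of all genes tested, of which 27.5% rose and 26.6% fell. The shares for the initiation factors were 24.5% higher and 37.7% lower, and among all protein-coding genes tested they were 20.1% and 30.6%, which makes 50.8% changed. Their median log2 fold change (AMI-5 over control) was -0.11, beside -0.00 over all genes tested. The direction split moved with the scaling of the libraries. It went from 17 higher and 17 lower under upper-quartile scaling to 10 higher and 27 lower under totals only. The split of all genes tested moved the same way, from 5336 higher and 4032 lower to 3962 and 5883. After correction for GC content and length over all genes it was 7 to 23 for the members and 3969 to 5651 for all genes tested. Below, this correction was made over all genes, processed pseudogenes included, unless stated otherwise. The differences were mostly small, and 2 genes, Eif3j1 and Eif3j2, changed by a log2 fold change of at least 1.

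**Figure D1:**
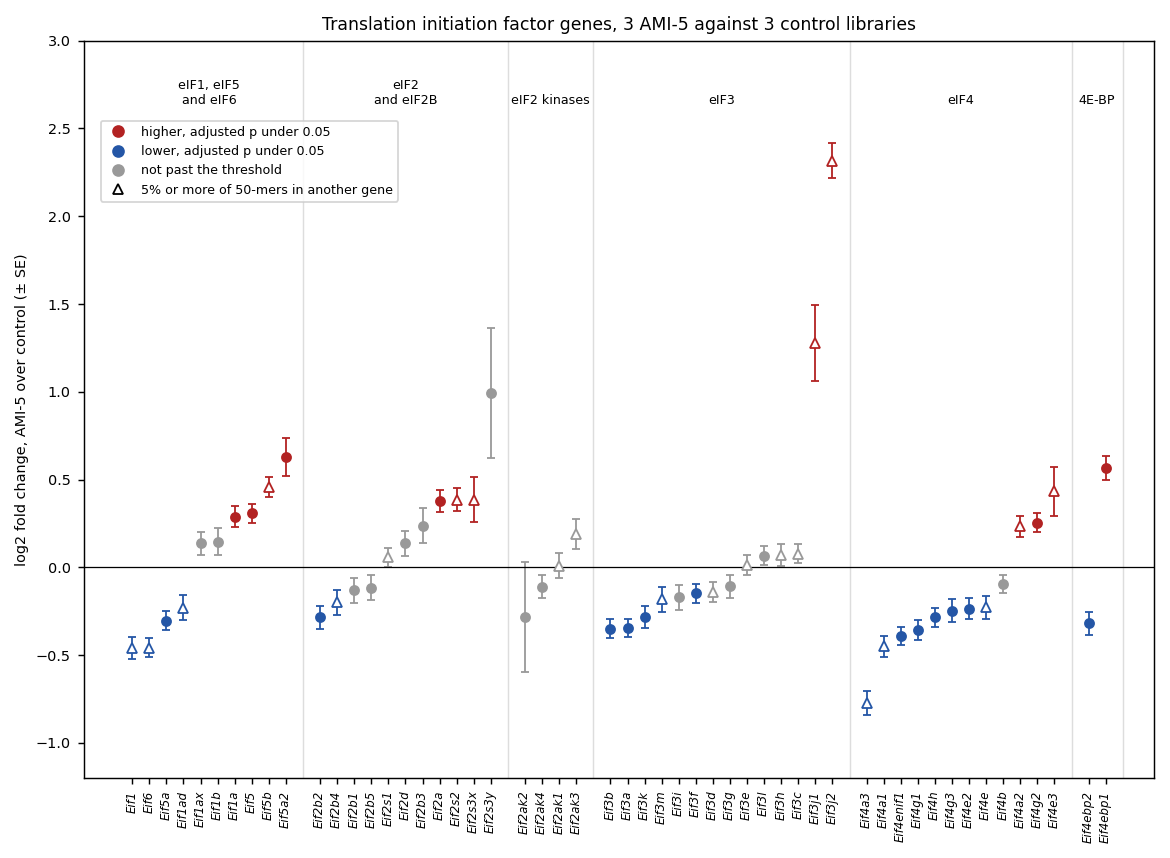
Log2 fold change of each tested initiation factor gene, AMI-5 over control, ordered by group, with bars for the standard error. Red is higher, blue lower and grey not past an adjusted p of 0.05, open triangles mark genes with 5% or more of their 50-base words in another gene, and the largest value, 2.32 for Eif3j2, is one of these.

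Summed over the 55 genes, the level was 9137 ± 138 CPM in the control libraries and 8758 ± 157 CPM in the AMI-5 libraries (mean ± SD, n = 3 in each group), and the groups did not overlap. With the pseudogene copies described below added, the order turned, at 9163 ± 138 CPM in the control libraries and 9483 ± 188 CPM in the AMI-5 libraries. Per kilobase of the deposited gene length, that of merged exons, Eif5a had the highest mean over the 6 libraries. It was at 211 ± 4.16 and 171 ± 8.04 CPM per kilobase in control and AMI-5 libraries. It was followed by Eif3h at 179 ± 11.4 and 187 ± 8.64 CPM per kilobase. Eif5a lay above Eif3h in every control and below it in every AMI-5 library, although their ranges overlapped with AMI-5. Eif4b came next at 153 ± 1.03 and 143 ± 2.08 CPM per kilobase. At the other end, Eif5a2 was at 1.54 ± 0.0745 and 2.38 ± 0.0914 CPM per kilobase and Eif3j1 at 0.451 ± 0.0810 and 1.10 ± 0.264 CPM per kilobase. Eif4ebp3 had 2 to 6 reads in each library and was not tested. Eif4e1b, an oocyte-type relative of the cap-binding protein, had 0 reads of 109378817 over the 6 libraries, which allows up to 0.0274 CPM for counting error alone.

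Reads of several members could not be placed without doubt, because their transcripts have near copies in the genome. In 23 of the 55 genes, 5% or more of the exonic 50-base words also occurred in another annotated gene, and in 11 of these the gene sharing most words was a pseudogene. The pseudogene copies analysed here numbered 29, for 13 of the members, and Eif1 alone had 13. Further annotated copies, among them those sharing most words with Eif3h and Eif4a2, were not analysed here, so no value of these 2 genes with copies added is given. The copies together took 25.5 ± 0.975 CPM in the control libraries and 725 ± 34.2 CPM in the AMI-5 libraries. Of the 29, 22 were tested and all 22 were higher with AMI-5, with log2 fold changes from 1.09 to 6.82 and a median of 4.69, but copies with few control reads passed the filter on low counts through the AMI-5 libraries and had to be higher. The 6 copies with at least 10 reads in each control library were all higher, by log2 fold changes of 2.54 to 6.16. Of all processed pseudogenes tested, 95.0% changed, with 93.1% higher and 1.93% lower. The same limit holds for them, since those with few control reads could pass the filter only through the AMI-5 libraries.

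The sequences show how little separates parent and copy. They are coding bases 301 to 390 of the parent, read from the GENCODE M21 transcripts of the mm10 build, and the same stretch of the processed pseudogene, with capitals where the genes of a pair differ.
Eif4a1: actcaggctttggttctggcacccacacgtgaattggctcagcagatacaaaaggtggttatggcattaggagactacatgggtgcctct
Eif4a-ps4: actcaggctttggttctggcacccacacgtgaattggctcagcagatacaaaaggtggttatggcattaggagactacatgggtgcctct
Eif2s2: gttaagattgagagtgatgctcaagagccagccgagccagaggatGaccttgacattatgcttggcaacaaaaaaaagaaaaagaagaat
Gm9892: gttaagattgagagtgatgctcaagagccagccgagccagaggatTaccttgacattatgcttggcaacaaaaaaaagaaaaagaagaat
Eif3m: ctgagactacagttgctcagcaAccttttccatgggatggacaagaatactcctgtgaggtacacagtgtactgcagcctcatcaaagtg
Gm7658: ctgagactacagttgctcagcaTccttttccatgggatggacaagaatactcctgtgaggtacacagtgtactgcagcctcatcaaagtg
Eif5a: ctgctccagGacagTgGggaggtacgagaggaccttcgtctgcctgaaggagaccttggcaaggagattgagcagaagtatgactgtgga
Eif5al3-ps: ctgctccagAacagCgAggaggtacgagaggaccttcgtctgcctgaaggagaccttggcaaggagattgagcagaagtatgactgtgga
The stretch of Eif4a1 has no difference from that of its copy, and over the whole 1218 coding bases Eif4a-ps4 (chr1:60703932-60705149, mm10) has 1 mismatch, an identity of 99.9%. Gm9892 differs from Eif2s2 at 5 of 992 aligned bases, Gm7658 from Eif3m at 16 of 1121, and Eif5al3-ps from Eif5a at 12 of 434. Gm2223, a copy of Eif2s3x, has 0 mismatches over 1347 aligned bases.

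Counts of these copies separated the groups without overlap. Eif4a-ps4 had 59, 64 and 72 reads in the control libraries and 8230, 7421 and 8273 in the AMI-5 libraries. Gm9892 had 44, 41 and 35 reads in the control libraries and 2037, 1891 and 1795 in the AMI-5 libraries. Gm2223 had 5, 8 and 13 reads in the control libraries and 974, 993 and 908 in the AMI-5 libraries. The control libraries thus held between 5 and 72 reads of each of these copies, and the AMI-5 libraries between 908 and 8273. When the counts of the copies were added to their parents, an alternative chosen after seeing the data, the direction of 3 called genes turned, as given with each of them below. Why the copies differ between the groups was not tested.

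**Figure D2:**
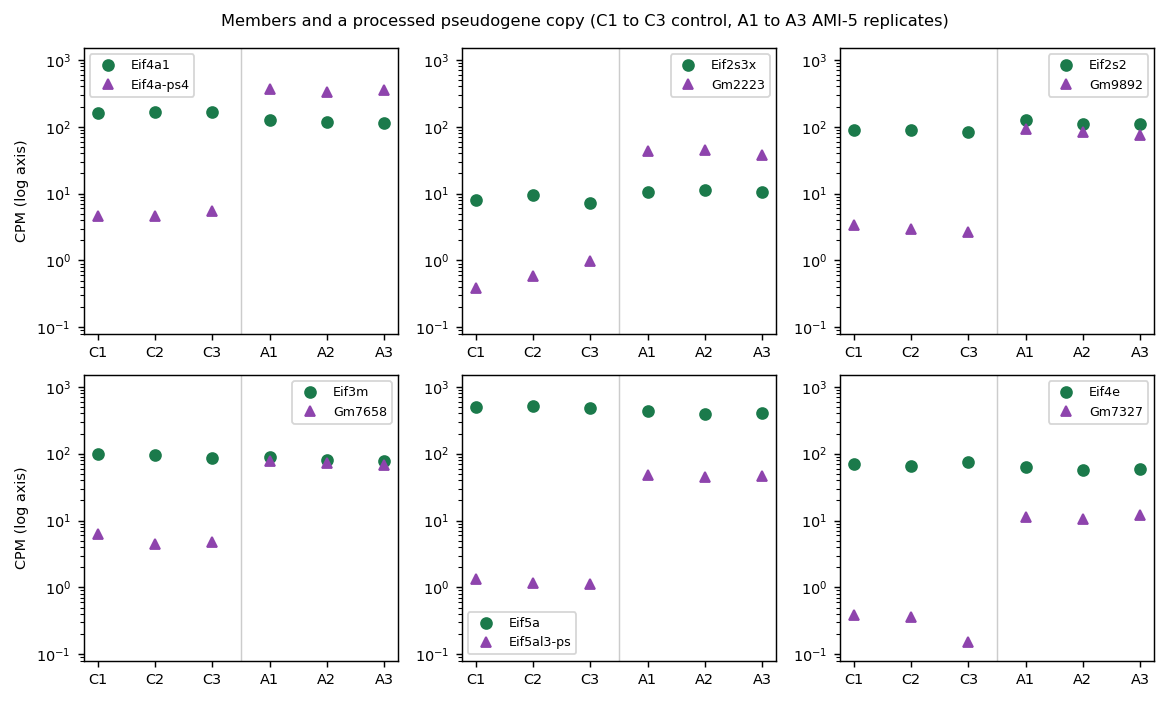
CPM on a log axis of 6 initiation factor genes (circles) and of 1 processed pseudogene copy of each (triangles), by library (C1 to C3 control, A1 to A3 AMI-5). The triangles are low in the controls and high with AMI-5, and for Eif4a1 the copy lies at 331 to 369 CPM with AMI-5, above the parent at 114 to 127 CPM.

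Among genes named for eIF1, eIF5 and eIF6, which set the start codon, join the subunits or keep them apart, 4 of 10 rose and 4 fell, with a median log2 fold change of 0.14. This and the group counts below stand beside 20.1% higher and 30.6% lower of all protein-coding genes tested. Eif5b, the GTPase that joins the large subunit, was at 241, 232 and 233 CPM in the control libraries and 331, 308 and 331 CPM in the AMI-5 libraries. The AMI-5 libraries were all higher (0.46 ± 0.055 SE on the log2 scale, adjusted p = 2.52e-05), although 14.3% of its sequence is shared with the overlapping gene Rev1. Eif5, which makes eIF2 hydrolyse GTP at the start codon, was at 233, 243 and 223 against 291, 285 and 287 CPM and rose (0.31 ± 0.054 SE on the log2 scale, adjusted p = 4.98e-04). After correction for gene trends in GC content and length its value was -0.05, and the call ended.

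Eif6, which keeps the large subunit from joining too early, was at 127, 118 and 122 CPM in the control libraries and 91.0, 86.96 and 89.0 CPM in the AMI-5 libraries. It fell in every AMI-5 library relative to every control (-0.46 ± 0.056 SE on the log2 scale, adjusted p = 2.93e-05), and after the same correction the value was -0.02. Eif1, which guards start codon choice, was at 153, 143 and 139.5 against 107, 109 and 99.7 CPM and fell (-0.46 ± 0.061 SE on the log2 scale, adjusted p = 5.41e-05). Its relative Eif1b was at 44.0, 36.7 and 41.7 against 47.6, 44.6 and 43.3 CPM, overlapped between groups and did not pass (0.15 on the log2 scale, adjusted p = 0.126). The ratio of Eif1b to Eif1, each per length, was 0.538, 0.480 and 0.557 in the control libraries and 0.826, 0.762 and 0.810 in the AMI-5 libraries, with no overlap and an exact two-sided permutation p of 0.1, the smallest that 3 against 3 allows. The shared sequence of Eif1 was 19.2%, and adding its 13 copies left it lower in summed level, at 147 ± 6.70 CPM in the control libraries and 129 ± 4.30 CPM in the AMI-5 libraries.

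eIF1A, which helps to place the initiator tRNA, is encoded by Eif1a and Eif1ax. Eif1a was at 100.4, 97.2 and 90.6 against 121, 116 and 116 CPM and rose (0.29 ± 0.059 SE on the log2 scale, adjusted p = 0.00139). Eif1ax was at 128, 119.7 and 114 against 140.4, 126 and 131 CPM, with overlap, and did not pass (0.14 on the log2 scale, adjusted p = 0.0915). After correction for GC content and length over all genes, Eif1b and Eif1ax passed as lower, at -1.18 and -0.29 on the log2 scale. Corrected over genes with under 5% shared sequence, Eif1b instead passed as higher, at 0.18 (adjusted p = 0.0431), and Eif1ax had no call. The related Eif1ad was at 39.1, 40.6 and 38.2 against 35.8, 32.5 and 32.3 CPM and fell (-0.23 on the log2 scale, adjusted p = 0.0156), a call that ended when any of 3 single libraries was left out.

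The eIF5A pair moved in opposite directions. Eif5a, the abundant factor that helps ribosomes past difficult peptide bonds, was at 507, 508 and 491 CPM in the control libraries and 428, 392 and 400.5 CPM in the AMI-5 libraries and fell (-0.30 ± 0.056 SE on the log2 scale, adjusted p = 6.48e-04). Eif5a2, its much scarcer paralogue, was at 7.75, 7.36 and 8.11 CPM in the control libraries and 11.8, 12.5 and 11.6 CPM in the AMI-5 libraries and rose (0.63 ± 0.109 SE on the log2 scale, adjusted p = 4.40e-04). Neither pair of groups overlapped. The ratio of Eif5a2 to Eif5a per length was 0.00722, 0.00685 and 0.00782 in the control libraries and 0.0130, 0.0151 and 0.0137 in the AMI-5 libraries, again with the smallest possible exact permutation p of 0.1. Both carry hypusine, made by Dhps and Dohh, which did not pass (-0.25 (adjusted p = 0.0546) and -0.18 (adjusted p = 0.0797) on the log2 scale).

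Of the 11 genes of eIF2 and eIF2B, 3 rose, 2 fell and 6 did not pass, with a median log2 fold change of 0.14. Eif2s1, the alpha subunit that the kinases phosphorylate, was at 81.4, 80.1 and 82.5 CPM in the control libraries and 87.5, 82.5 and 83.7 CPM in the AMI-5 libraries. The groups lay side by side and the difference did not pass (0.06 on the log2 scale, adjusted p = 0.403). Its direction depended on the setting, since with copies added it passed as higher at 0.20 (adjusted p = 0.00818) and after correction for GC content and length as lower at -0.21 (adjusted p = 0.00544). Eif2s2, the beta subunit, was at 90.4, 89.6 and 83.8 against 125, 111 and 109 CPM and rose (0.39 ± 0.066 SE on the log2 scale, adjusted p = 4.06e-04), with 10.3% of its sequence shared. With its copy Gm9892 added, the log2 fold change of Eif2s2 was 1.13. After correction for GC content and length it was 0.05 and the call ended (adjusted p = 0.592). Eif2a, which is not part of eIF2 despite its symbol but can deliver initiator tRNA, was at 62.0, 59.5 and 57.9 against 82.0, 76.6 and 74.3 CPM and rose (0.38 ± 0.061 SE on the log2 scale, adjusted p = 2.52e-04).

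For the exchange factor, Eif2b2, its beta subunit, was at 72.8, 65.7 and 69.9 CPM in the control libraries and 60.0, 56.0 and 54.9 CPM in the AMI-5 libraries. It fell without overlap (-0.29 ± 0.063 SE on the log2 scale, adjusted p = 0.00227). Eif2b4, the delta subunit, was at 56.6, 57.8 and 54.3 against 52.9, 44.3 and 49.7 CPM and fell (-0.20 on the log2 scale, adjusted p = 0.0323), a call that ended in 4 of the 6 fits that left out 1 library. The other eIF2B subunits did not pass, with log2 fold changes of -0.13 (adjusted p = 0.141) for Eif2b1, 0.24 (adjusted p = 0.0613) for Eif2b3 and -0.12 (adjusted p = 0.206) for Eif2b5, and neither did Eif2d, an initiator tRNA binder, at 0.14 (adjusted p = 0.129).

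The gamma subunit of eIF2 is encoded on both sex chromosomes of the mouse. Eif2s3x, on the X chromosome, was at 8.06, 9.40 and 7.12 CPM in the control libraries and 10.5, 11.2 and 10.4 CPM in the AMI-5 libraries. It rose (0.39 ± 0.126 SE on the log2 scale, adjusted p = 0.0216), but 34.6% of its sequence is shared and the X-linked copy Gm2223 added brought the value to 2.58. Eif2s3y, on the Y chromosome, has no shared sequence and was at 35.1, 23.1 and 15.4 CPM in the control libraries and 40.7, 42.5 and 62.9 CPM in the AMI-5 libraries. Every AMI-5 library was above every control, yet the spread was wide and the difference did not pass (0.99 ± 0.370 SE on the log2 scale, adjusted p = 0.0839). Without control replicate 1 it passed, at a log2 fold change of 1.34 and an adjusted p of 0.0290, and DESeq2 gave 1.01 with 0.0241.

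Other Y genes were measured beside Eif2s3y. Ddx3y, an RNA helicase, was at 48.7, 30.3 and 26.3 against 61.1, 64.2 and 105 CPM (1.13 on the log2 scale, adjusted p = 0.0587). Uty, a demethylase relative, was at 14.1, 8.75 and 8.79 against 17.99, 19.9 and 30.5 CPM and rose (1.11 on the log2 scale, adjusted p = 0.0208). Kdm5d, a histone demethylase, was at 28.1, 19.7 and 13.9 against 23.2, 24.1 and 39.5 CPM (0.50 on the log2 scale, adjusted p = 0.311). In all 4 genes AMI-5 replicate 3 was the highest library. The ratio of Eif2s3y to Ddx3y per length was 0.901, 0.952 and 0.731 in the control libraries and 0.833, 0.827 and 0.751 in the AMI-5 libraries, so the groups overlapped in this ratio. Against Kdm5d the ratio was 4.56, 4.26 and 4.04 in the control libraries and 6.41, 6.43 and 5.81 in the AMI-5 libraries, which did not overlap (exact permutation p = 0.1), while the ratio to Uty overlapped. The share of male tissue in each library is not given in the labels and its part in these values was not tested.

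**Figure D3:**
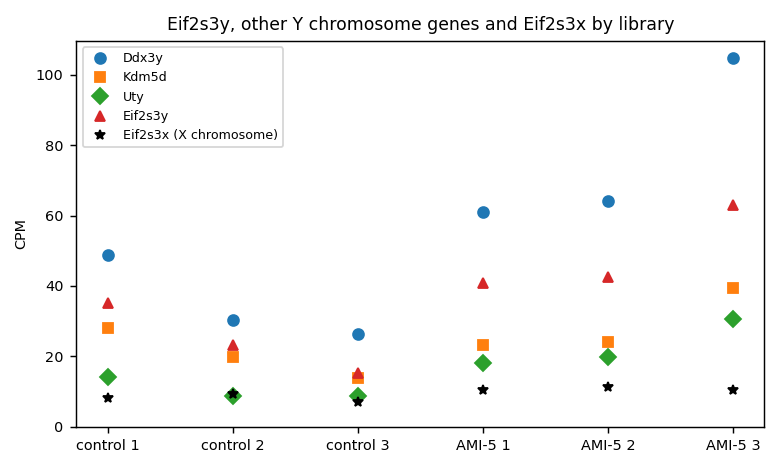
CPM of Eif2s3y, 3 other genes of the Y chromosome and Eif2s3x in each of the 6 libraries. All 4 Y genes are highest in AMI-5 replicate 3, with Eif2s3y from 15.4 CPM in control replicate 3 to 62.9 CPM in AMI-5 replicate 3, while Eif2s3x stays between 7.12 and 11.2 CPM.

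None of the 4 eIF2 kinases passed the edgeR test, with a median log2 fold change of -0.05, and 0 had an unadjusted p under 0.05. limma voom called 0 of them and DESeq2 called 1, Eif2ak3. Eif2ak3, which encodes PERK and answers protein misfolding in the endoplasmic reticulum, was at 142, 143 and 131 CPM in the control libraries and 146, 146 and 182 CPM in the AMI-5 libraries. AMI-5 replicate 3 stood highest and the other 2 were just above the controls (0.19 ± 0.086 SE on the log2 scale, adjusted p = 0.0867). It passed in 6 alternatives, among them DESeq2 at 0.21 with an adjusted p of 0.0460, and without AMI-5 replicate 2 at 0.27 with 0.0230. Eif2ak4, the amino acid sensor GCN2, was at 47.8, 48.2 and 45.4 against 41.0, 45.4 and 44.6 CPM (-0.11 on the log2 scale, adjusted p = 0.169), and Eif2ak1, the haem-regulated kinase, was at 50.7, 48.8 and 45.9 against 48.6, 45.2 and 52.4 CPM (0.01 on the log2 scale, adjusted p = 0.926), both with overlapping groups.

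Eif2ak2, which encodes the double-stranded RNA sensor PKR, was at 72.9, 37.3 and 40.6 CPM in the control libraries and 37.0, 39.0 and 47.9 CPM in the AMI-5 libraries. Control replicate 1 stood apart from the other 5 libraries, and the difference between groups did not pass (-0.28 ± 0.313 SE on the log2 scale, adjusted p = 0.499). Without control replicate 1 the log2 fold change was 0.08. PKR is induced by interferon, and 3 interferon-induced genes, chosen after their values were seen, were high in the same library. Isg15 was at 89.4, 7.80 and 13.6 against 7.27, 9.67 and 16.4 CPM and Irf7 at 102, 10.7 and 16.6 against 12.2, 22.5 and 22.01 CPM. Ifit1 was at 53.2, 3.79 and 8.41 against 6.24, 9.40 and 23.2 CPM. Their part in the level of Eif2ak2 was not tested.

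**Figure D4:**
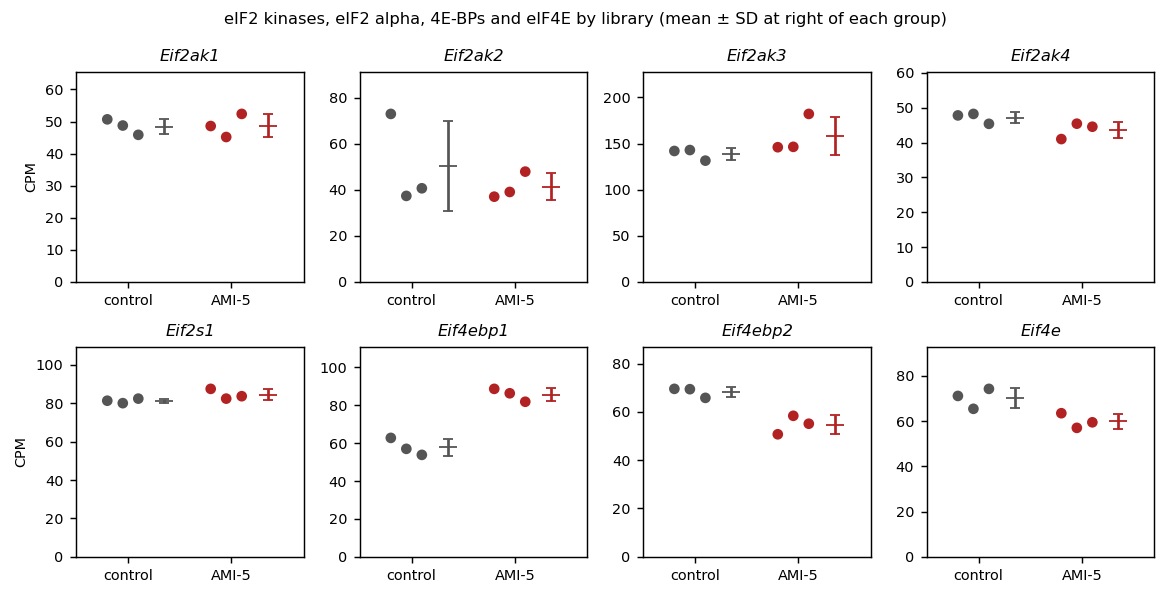
CPM of the 4 eIF2 kinases, Eif2s1, the tested 4E-BP genes and Eif4e, with 1 point for each of 3 control and 3 AMI-5 libraries and the mean ± SD at the right of each group. Eif4ebp1 is higher and Eif4ebp2 lower in all AMI-5 libraries, and 1 control library of Eif2ak2 lies at 72.9 CPM, above the other 5.

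In a list of 18 genes for the eIF2 phosphatase and the stress response downstream of the kinases, 12 rose and 3 fell. Their median log2 fold change was 0.74, and of all protein-coding genes tested 20.1% were higher and 30.6% lower. Among the 14 list genes with under 5% shared sequence, 12 rose and 0 fell, with a median of 0.93. Of all protein-coding genes with as little shared sequence, 19.6% were higher and 30.3% lower. This list, like the gene lists below, was chosen with earlier results of these data known. The shares are therefore not an independent comparison. Trib3, a pseudokinase induced by ATF4 and CHOP, was at 8.99, 10.4 and 7.35 against 91.9, 85.3 and 62.7 CPM (3.16 ± 0.197 SE on the log2 scale, adjusted p = 1.86e-05). Ddit3, which encodes CHOP, was at 16.1, 18.2 and 17.5 against 54.7, 51.1 and 42.4 CPM (1.51 ± 0.102 SE on the log2 scale, adjusted p = 1.51e-07). Atf5 rose by 1.03 and Cebpg by 0.84 on the log2 scale, both without overlap. In the same edgeR fit the mRNAs of the kinases and of Eif2s1 did not pass, with the exceptions under other settings given above for Eif2ak3 and Eif2s1. Phosphorylated eIF2 was not measured.

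Of the 14 eIF3 genes, 5 fell, 2 rose and 7 did not pass, and their median log2 fold change was -0.13. Among all protein-coding genes tested, 30.6% fell and 20.1% rose. Their summed level was 2879 ± 68.5 CPM in the control libraries and 2642 ± 49.98 CPM in the AMI-5 libraries, which did not overlap. With copies added the groups overlapped, at 2892 ± 69.2 and 2776 ± 55.7 CPM. Eif3a, the large scaffold subunit, was at 649, 671 and 656 CPM in the control libraries and 499, 527 and 529.7 CPM in the AMI-5 libraries and fell (-0.35 ± 0.053 SE on the log2 scale, adjusted p = 1.80e-04). Eif3b, the other core scaffold, was at 313, 306 and 299 against 238, 231 and 250.02 CPM and fell (-0.35 ± 0.054 SE on the log2 scale, adjusted p = 1.93e-04). Neither has shared sequence, and all AMI-5 libraries of both genes were below all controls. Eif3b was at -0.02 after correction for GC content and length over all genes, which ended its call. The call of Eif3b remained when the correction was made over genes with under 5% shared sequence.

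Eif3k, a small peripheral subunit, was at 179.6, 166 and 159 CPM in the control libraries and 146, 135 and 134 CPM in the AMI-5 libraries and fell (-0.28 on the log2 scale, adjusted p = 0.00236). Eif3f, one of the MPN domain subunits, was at 270.2, 271 and 255 against 241, 243 and 236 CPM and fell (-0.15 on the log2 scale, adjusted p = 0.0322), a small difference whose call ended in most alternatives. Eif3m was at 98.8, 96.0 and 87.5 against 90.5, 80.4 and 77.8 CPM, with overlap, and fell (-0.18 on the log2 scale, adjusted p = 0.0485). With its copy Gm7658 added, Eif3m turned to 0.65, so that its direction depends on where reads of the copy belong.

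The 7 subunit genes without a call were Eif3c, Eif3d, Eif3e, Eif3g, Eif3h, Eif3i and Eif3l. The highest of them per length, Eif3h, was at 240.2, 218 and 214 against 246, 224 and 234 CPM (0.07 on the log2 scale, adjusted p = 0.378). Eif3c was at 345, 352 and 353 against 380.2, 376 and 352 CPM (0.08 on the log2 scale, adjusted p = 0.249). These groups overlapped. Eif3d and Eif3i had lower means with AMI-5 and came nearest to passing, at -0.14 (adjusted p = 0.0536) and -0.17 (adjusted p = 0.0586). Eif3d passed as lower under totals-only scaling, limma voom (adjusted p = 0.0480) and the correction for GC content and length (-0.55 on the log2 scale). Eif3i passed as lower under totals-only scaling, the same correction and the replicate block (adjusted p = 0.0171). Eif3d has 37.2% of its sequence in an overlapping antisense gene. Eif3e, Eif3g and Eif3l lay at log2 fold changes of 0.01 (adjusted p = 0.856), -0.11 (adjusted p = 0.181) and 0.07 (adjusted p = 0.322). Eif3e passed at 0.37 with its copies added. After the correction over all genes, Eif3e, Eif3h and Eif3l passed as lower, at -1.28, -1.16 and -0.41 on the log2 scale. Eif3l did not pass when the correction was made over genes with under 5% shared sequence, which do not include Eif3e and Eif3h.

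The 2 genes for the loosely bound j subunit were the exception in direction. Eif3j2 was at 10.5, 9.69 and 8.72 CPM in the control libraries and 52.1, 47.8 and 44.0 CPM in the AMI-5 libraries, a rise to 4.98 times the control (2.32 ± 0.098 SE on the log2 scale, adjusted p = 1.62e-09). Eif3j1 was at 2.56, 3.13 and 2.20 CPM in the control libraries and 8.17, 5.48 and 5.53 CPM in the AMI-5 libraries (1.28 ± 0.216 SE on the log2 scale, adjusted p = 3.60e-04). Both separated the groups without overlap. Of the 50-base words of Eif3j2, 90.8% occur in Eif3j1, and 36.6% of those of Eif3j1 occur in Eif3j2, so many reads cannot be assigned firmly to either. Their sum was 12.3 ± 1.16 CPM in the control libraries and 54.4 ± 5.48 CPM in the AMI-5 libraries. The 2379 bases of Eif3j2 exons fill its whole genomic span, so it has no annotated intron. Being annotated as protein-coding, it was not among the pseudogene copies and was not added to Eif3j1. Of the processed pseudogenes tested, 93.1% were higher, a share that depends in part on the filter on low counts, as given above. Whether the rise of Eif3j2 belongs with theirs was not tested. Among the 7 eIF3 genes with under 5% shared sequence, 0 rose and 4 fell in the same edgeR fit. For all protein-coding genes with as little shared sequence the shares were 19.6% higher and 30.3% lower.

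Of the 13 eIF4 genes, 8 fell, 3 rose and 1 of the 12 tested did not pass, and the median log2 fold change was -0.24. The shares over all protein-coding genes tested were 30.6% lower and 20.1% higher. Eif4g1, the main scaffold that links the cap complex to eIF3, was at 769, 779.8 and 771 CPM in the control libraries and 581, 599 and 632 CPM in the AMI-5 libraries and fell (-0.36 ± 0.055 SE on the log2 scale, adjusted p = 1.69e-04). Its paralogue Eif4g3 was at 161, 178 and 179 against 136, 148 and 152 CPM and also fell (-0.25 ± 0.064 SE on the log2 scale, adjusted p = 0.00640). Eif4g2, known as DAP5, lacks the eIF4E-binding site and serves initiation without the cap complex. It was at 887, 897 and 917 CPM in the control libraries and 1093, 1051 and 1079.8 CPM in the AMI-5 libraries and rose (0.25 ± 0.052 SE on the log2 scale, adjusted p = 0.00143).

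The 3 scaffold genes have at most 1.25% shared sequence. The ratio of Eif4g2 to Eif4g1 per length was 0.820, 0.818 and 0.846 in the control libraries and 1.34, 1.25 and 1.21 in the AMI-5 libraries. Per length, Eif4g1 was thus the higher gene in the controls and Eif4g2 with AMI-5, without overlap and with the smallest exact permutation p, 0.1. This order rests on the deposited length, that of merged exons, since in CPM Eif4g2 was above Eif4g1 in every library. The rise of the ratio does not depend on the length. After correction for GC content and length over all genes, the calls of Eif4g2 and Eif4g3 ended. Eif4g1 was at -0.14 and still passed (adjusted p = 0.0382), but not when the replicate block was added to the correction (adjusted p = 0.0517).

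**Figure D5:**
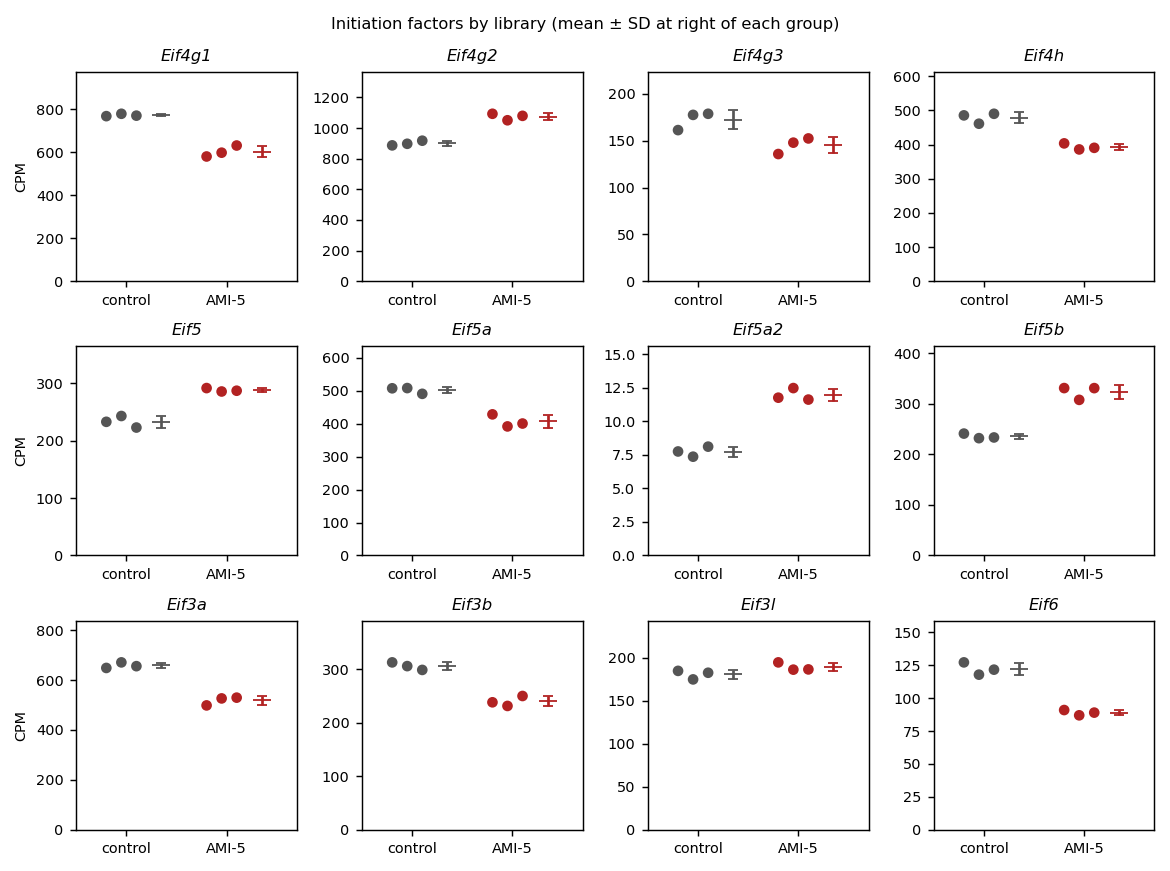
CPM of 12 genes of eIF3, eIF4, eIF5 and eIF6, with 1 point for each of 3 control and 3 AMI-5 libraries and the mean ± SD at the right of each group. Eif4g1 lies at 769 to 779.8 CPM in the controls and 581 to 632 CPM with AMI-5, and Eif4g2 moves the other way.

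The helicase genes also differed in direction. Eif4a1 was at 159.6, 164 and 165 CPM in the control libraries and 127, 116 and 114 CPM in the AMI-5 libraries and fell (-0.45 ± 0.058 SE on the log2 scale, adjusted p = 4.41e-05). Eif4a2, its paralogue, was at 274, 309 and 283 against 351, 335 and 333 CPM and rose (0.23 ± 0.060 SE on the log2 scale, adjusted p = 0.00603). This direction is uncertain too, because after correction for GC content and length Eif4a2 passed as lower (-0.18 on the log2 scale, adjusted p = 0.0198), and 13.6% of its sequence is shared. Their per-length ratio, Eif4a2 over Eif4a1, was 1.39, 1.53 and 1.39 in the control libraries and 2.24, 2.33 and 2.36 in the AMI-5 libraries. The fall of Eif4a1 is in doubt because 28.4% of its sequence is shared and the sum with its copies was 168 ± 3.31 CPM in the control libraries and 482 ± 25.7 CPM in the AMI-5 libraries, a log2 fold change of 1.52 in the opposite direction.

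Eif4a3, the helicase of the exon junction complex, was at 111, 107 and 103 CPM in the control libraries and 67.6, 57.8 and 62.5 CPM in the AMI-5 libraries. It had the largest fall among the members (-0.77 ± 0.067 SE on the log2 scale, adjusted p = 1.58e-06), it did not overlap, and with its copy Gm5576 added the sum was still lower, at 107 ± 4.30 CPM in the control libraries and 74.8 ± 5.89 CPM in the AMI-5 libraries. The helicase cofactor Eif4h was at 486, 461 and 490.2 against 404, 386 and 390.5 CPM and fell (-0.28 ± 0.054 SE on the log2 scale, adjusted p = 7.81e-04). Eif4b, the other cofactor, was at 589.8, 595 and 587 against 561, 553 and 545 CPM and did not pass (-0.10 on the log2 scale, adjusted p = 0.133).

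Among the cap-binding proteins, Eif4e was at 71.1, 65.4 and 74.3 CPM in the control libraries and 63.5, 57.0 and 59.5 CPM in the AMI-5 libraries and fell (-0.23 ± 0.067 SE on the log2 scale, adjusted p = 0.0124). With its copy Gm7327 added the value was 0.02 and no longer passed (adjusted p = 0.856). Eif4e2, which can repress bound mRNAs, was at 109, 98.5 and 102 against 92.3, 86.5 and 84.3 CPM and fell (-0.24 on the log2 scale, adjusted p = 0.00698). Eif4e3, a scarce relative, was at 8.14, 8.67 and 6.44 against 10.3, 11.4 and 9.63 CPM and rose (0.43 on the log2 scale, adjusted p = 0.0189). Eif4enif1, which carries eIF4E into the nucleus, was at 86.1, 85.8 and 85.3 CPM in the control libraries and 63.9, 65.7 and 66.2 CPM in the AMI-5 libraries and fell without overlap (-0.39 ± 0.053 SE on the log2 scale, adjusted p = 6.23e-05).

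The 4E-BP genes with reads enough to test moved in opposite directions. Eif4ebp1 (chr8:27260329-27276674, mm10) was at 62.8, 57.0 and 53.8 CPM in the control libraries and 88.7, 86.3 and 81.9 CPM in the AMI-5 libraries. All AMI-5 libraries were higher (0.57 ± 0.068 SE on the log2 scale, adjusted p = 2.41e-05). Eif4ebp2 (chr10:61428491-61452661) was at 69.5, 69.4 and 65.8 CPM in the control libraries and 50.7, 58.4 and 55.1 CPM in the AMI-5 libraries and all AMI-5 libraries were lower (-0.32 ± 0.065 SE on the log2 scale, adjusted p = 0.00139). Both have under 5% shared sequence and kept call and direction in every alternative run.

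The ratio of Eif4ebp1 to Eif4ebp2 per length was 0.734, 0.668 and 0.665 in the control libraries and 1.42, 1.20 and 1.21 in the AMI-5 libraries. The order of the 2 genes was thus turned, and exact permutation gave 0.1, the smallest possible p. Against the cap-binding protein they restrain, Eif4ebp1 over Eif4e per length was 2.41, 2.38 and 1.98 in the control libraries and 3.82, 4.14 and 3.77 in the AMI-5 libraries, also without overlap. Summed over the 3 genes, the 4E-BPs were at 126 ± 6.39 CPM in the control libraries and 141 ± 4.01 CPM in the AMI-5 libraries. Phosphorylated 4E-BP was not measured.

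Signalling genes upstream of 4E-BP and eIF4E moved in both directions. Of 16 genes for TOR and MNK signalling, 7 fell and 3 rose, with a median log2 fold change of -0.20, beside 30.6% lower and 20.1% higher of all protein-coding genes tested. Ddit4, a TOR inhibitor induced by stress, was at 358, 348 and 325 against 241, 231 and 224 CPM (-0.57 ± 0.058 SE on the log2 scale, adjusted p = 6.84e-06). Akt1s1, another TOR inhibitor, was at 129, 116 and 118 against 85.5, 82.9 and 91.1 CPM (-0.49 on the log2 scale, adjusted p = 4.63e-05). Mknk2, a kinase that phosphorylates eIF4E, was at 143, 133 and 146 against 107, 104 and 103 CPM (-0.43 on the log2 scale, adjusted p = 5.87e-05). All 3 separated the groups.

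Other translation genes also moved in both directions, and the counts of the 4 lists that follow stand beside 50.8% changed among all protein-coding genes tested. Of 13 elongation factors, 2 rose and 3 fell, and Eef1a1, which brings charged tRNA to the ribosome, went from 5037 ± 410.2 to 3160.1 ± 128 CPM (-0.67 on the log2 scale, adjusted p = 8.55e-06) with 40.4% shared sequence. Of 9 termination and recycling factors, 3 rose and 1 fell, with Etf1, the release factor that reads stop codons, at 0.27 (adjusted p = 0.00113) on the log2 scale. Of 7 poly(A)-binding proteins and partners, 5 rose and 1 fell. The one that fell was Pabpc1, the main cytoplasmic poly(A)-binding protein and the most abundant of the list, at 1153, 1139.6 and 1114 against 1024, 1035 and 1018 CPM (-0.15 on the log2 scale, adjusted p = 0.0308). Of 17 accessory initiation proteins, 1 rose and 5 fell, among them Gigyf2, a partner of Eif4e2, at 147, 152 and 147 against 109, 115 and 116 CPM (-0.39 on the log2 scale, adjusted p = 7.67e-05) and Abcf1, which binds eIF2, at 221, 219 and 214 against 167, 156 and 168 CPM (-0.41 on the log2 scale, adjusted p = 5.37e-05).

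Promoter sequences (250 bases before to 50 after the start, RefSeq, GRCm38.p6) were found for 43 of the 55 genes. They were searched on both strands for the E-box CACGTG, which Myc and related factors can bind, for the ATF4 element TGATGNAA and for the NRF1 element GCGCATGC. The E-box reads the same on both strands, and the 2 NRF1 matches of Eif3k overlap each other. The E-box occurred in 10 of the 43 genes (23.3%), beside 8.09% of 27025 genes with a promoter, 7.15% of all 32851 promoters and 11.2% of 11354 tested protein-coding genes. It was in 8 of the 19 members that fell, in 1 of 8 that rose and in 1 of 16 without a call. Promoters were lacking for Eif1a, Eif3j2, Eif4e3, Eif4ebp1 and Eif4g2, which rose, and for Eif6, which fell. The search thus held 8 of the 13 members that rose and 19 of the 20 that fell. Among all tested protein-coding genes it was in 11.3% of those that fell and 12.4% of those that rose. The windows below are 46 bases on the gene strand around the E-box, in capitals, for 6 members that fell and for Eif5a2, the one that rose.
Eif4g1 (chr16:20672653-20672698, + strand): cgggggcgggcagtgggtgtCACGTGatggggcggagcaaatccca
Eif4h (chr5:134639480-134639525, - strand): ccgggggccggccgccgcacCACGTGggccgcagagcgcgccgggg
Eif4e (chr3:138527184-138527229, + strand): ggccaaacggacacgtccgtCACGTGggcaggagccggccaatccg
Eif4a1 (chr11:69672587-69672632, - strand): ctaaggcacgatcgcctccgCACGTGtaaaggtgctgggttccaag
Eif5a (chr11:69921435-69921480, - strand): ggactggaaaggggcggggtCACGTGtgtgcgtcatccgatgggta
Eif3f (chr7:108934327-108934372, + strand): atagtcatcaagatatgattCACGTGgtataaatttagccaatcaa
Eif5a2 (chr3:28781115-28781160, + strand): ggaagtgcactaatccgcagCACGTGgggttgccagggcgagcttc
The other members that fell with an E-box were Eif3a and Eif3k. Of the 8 that fell with an E-box, Eif3a and Eif5a kept call and direction in every alternative run. Each of the others lost or turned its call in at least 1. The ATF4 element was in 1 of 43 members, Eif2s3x, beside 2.83% of tested protein-coding genes, and the NRF1 element in 3 (Eif2s1, Eif3k and Eif4h), beside 5.53%. A match describes these letters only, and no binding was measured.

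Across the alternatives run, 11 of the 33 called members kept both call and direction in every fit that held them. The 2 fits over unique-sequence genes left out Eif1, Eif5b, Eif3j1, Eif3j2 and Eif4a3. The genes higher were Eif4ebp1, Eif5b, Eif3j1 and Eif3j2. The genes lower were Eif4ebp2, Eif1, Eif5a, Eif2b2, Eif3a, Eif4a3 and Eif4enif1. Correction for GC content and length over all genes ended or, for Eif4a2, turned 16 calls, those of Eif1a, Eif2a, Eif2b4, Eif2s2, Eif2s3x, Eif3b, Eif3f, Eif3k, Eif4a2, Eif4e3, Eif4g2, Eif4g3, Eif4h, Eif5, Eif5a2 and Eif6. Made over unique-sequence genes, the correction ended 7 calls, those of Eif1a, Eif2a, Eif4e2, Eif4g2, Eif4g3, Eif4h and Eif5. Leaving out 1 of the 6 libraries ended the call of Eif1ad, Eif2b4, Eif2s3x, Eif3f, Eif3m, Eif4e, Eif4e2 or Eif4e3 in at least 1 fit. Without AMI-5 replicate 2, the library with high Alb and Afp, 14 members were higher and 15 lower. Of the 31 tested members with under 5% shared sequence, 6 rose and 12 fell, with a median log2 fold change of -0.12. Of all protein-coding genes with as little shared sequence, 49.9% changed, with 19.6% higher and 30.3% lower. Groups did not overlap in 39 of the 53 tested members (73.6%), beside 61.9% of all genes tested.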

How the data were processed

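The authors deposited 1 table of raw read counts per gene with 49763 entries, and 92 spike-in entries with 1 read in all were left out. The submitters' processing notes name mm10, the counter featureCounts 1.6.2, the aligner GSNAP 2018-05-30 and bcl2fastq 2.19.1. How strand and multiply mapped reads were handled is not given in the sources. Members and gene lists were chosen with earlier results of these data known.

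Symbols, positions, shared 50-base words and coding sequences came from GENCODE M21 (mm10), and promoters from RefSeq tables of GRCm38.p6. Differences in the deposited counts were tested by edgeR 4.0.16 under R 4.3.3 (TMM, filterByExpr, robust quasi-likelihood F test, two-sided, group as the only term) over 17519 genes, with a biological coefficient of variation of 9.65%. CPM used the TMM-adjusted library size, and per-kilobase levels divided it by the deposited length, that of the merged exons of a gene. Ratios were compared by exact permutation over libraries. A member is called unique under 5% shared words.

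Genes named in full were the kinases, the 4E-BPs, paralogue pairs, and in each group up to 6 with the smallest p and 3 with the highest level. Every other member is named with its value. On simulated counts for these 17519 genes, the share recovered was 39.2% at a simulated log2 change of 0.5, 85.5% at 1 and 100% at 2. False calls made up 4.58%. Only a small set of genes was changed, with random direction, and all genes had the same dispersion. In the data 54.1% of genes were called, so the simulation does not give the share of false calls there. Pairs of replicates differed beyond sampling noise, with a chi-square of 6.60 to 17.97 per degree of freedom. Each library was taken as 1 sample, although this spread may be technical and does not show separate embryos or cultures. Alternatives were other scalings, filters, limma 3.58.1 voom, DESeq2 1.42.0, a replicate block, single libraries left out, removal of GC and length trends (natural splines, 5 degrees of freedom each), unique genes only, and pseudogene copies added, the last chosen after seeing the data.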

Additional observations from a re-analysis of the deposited data

How the results depend on the processing

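The 13 higher and 20 lower members became 7 and 23 after correction for GC content and length over all genes. With the replicate block added to that they became 5 and 22. Among all genes tested, 4820 higher and 4652 lower became 3969 and 5651, and 3759 and 5406 with the block. The fits of unique-sequence genes only held 31 of the 53 tested members, of which 6 were higher and 12 lower in the main fit. In these fits 8 members were higher and 11 lower, and 4 and 10 when the correction was made over these genes. Under the same last 2 settings, 2495 and 1653 of the 10915 unique-sequence genes fitted were higher and 2733 and 2609 lower. The replicate block alone gave 13 higher and 21 lower members and 4704 and 4482 of all genes. Same-numbered libraries did not deviate together (r of -0.058, -0.038 and -0.048), so the numbers were not taken as pairs.

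For eIF2 and eIF2B, 3 higher became 5 under upper-quartile scaling and 1 under the correction over all genes, that correction with the replicate block, or over unique genes. The 2 lower became 1 under RLE or upper-quartile scaling, a mean count of at least 10, unique genes, their correction or DESeq2, and 4 under totals-only scaling, with 1 to 3 when 1 library was left out. For eIF3, 2 higher became 0 over unique genes, corrected or not, and 4 with copies added. The 5 lower became 3 under RLE or upper-quartile scaling, unique genes or DESeq2, and 8 under totals-only scaling or the correction over all genes, with or without the block, with 3 to 6 when 1 library was left out. For eIF4, 3 higher became 1 under totals-only scaling or unique genes, and 0 under the correction over all genes, with or without the block, or over unique genes. The 8 lower became 5 over unique genes and 2 corrected. For eIF1, eIF5 and eIF6, 4 higher became 1 under the correction, with or without the block, and 2 over unique genes, and 4 lower became 1 over unique genes, corrected or not. Fits over unique genes hold fewer genes, and other causes were not tested.

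After the correction over all genes, and with the replicate block added, log2 fold changes turned for Eif1ax (-0.29 and -0.29), Eif1b (-1.18 and -1.17), Eif2b4 (0.13 and 0.13), Eif2s1 (-0.21 and -0.21), Eif3e (-1.28 and -1.28), Eif3h (-1.16 and -1.16), Eif3l (-0.41 and -0.41), Eif4a2 (-0.18 and -0.18) and Eif5 (-0.046 and -0.046). Corrected over unique genes, Eif1a was at -0.047 and Eif1b at 0.18. With copies added, Eif3m was at 0.65, Eif4a1 at 1.52 and Eif4e at 0.016. The cause was not tested.

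With no filter the median log2 fold change of all genes was 0.14 in place of -0.00. The depth of the controls limits genes with few reads, such as Eif3j1 and Eif4ebp3.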
